A study of Danio rerio with 14 samples.

Results

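Expression in the eyes of PTU-exposed zebrafish larvae was compared between the end of exposure at 5 dpf and 8 dpf, after 3 days in water without PTU. The comparison took the 3 RNA extracts of PTU 5 dpf and the 3 of PTU 8 dpf, which are 6 of the 12 extracts in the series. It was read from one linear model of the log2 Cy5/Cy3 ratios of all 14 arrays as the contrast of PTU 8 dpf over PTU 5 dpf. Eggs and larvae of the wild-type strain AB were kept in 350 mg/L PTU until 5 dpf (PTU 5 dpf) and then without it until 8 dpf (PTU 8 dpf). Control larvae of the same strain were kept without PTU and sampled at the same ages (control 5 dpf and control 8 dpf). Each extract pooled the eyes of 10 larvae, which can carry RNA of adjoining skin, muscle and blood, and the 3 extracts of a group came from separate exposure plates. Since the exposed larvae grew older while PTU was withdrawn, age and recovery cannot be told apart within exposed eyes, and the change of control eyes over the same days is given beside each group of genes.

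PTU (propylthiouracil) is a drug that blocks the synthesis of thyroid hormone, which acts through nuclear receptors and drives the maturation of the retina. In the larval zebrafish eye, cones and the inner neurons already serve vision at these ages, while lens fibre cells, pigment epithelium and the growth zone at the retinal margin are still adding tissue. Crystallins are the bulk proteins of the lens, opsins and the phosphodiesterase cascade turn light into a signal in photoreceptors, and macrophages and microglia clear debris and present antigen.

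Ages were compared within an array on 4 of the 14 arrays only. The array that set PTU 5 dpf replicate 1 (Cy5) against PTU 8 dpf replicate 3 (Cy3) was the single direct comparison. It carried 33.1% of the weight that these 4 arrays together had in the contrast, which arrays within an age entered too. Extracts are abbreviated by treatment, age and replicate, as C5-1 for control 5 dpf replicate 1 and P8-3 for PTU 8 dpf replicate 3. The array of P8-2 and C5-1 carried 27.4%, that of C8-1 and P5-1 22.6%, and that of C5-1 and C8-2 16.9%. With P5-1 or C5-1 left out, 2 of these 4 arrays fell away. The direction of each ratio was taken from the dyes in the labels and the base of the logarithm from the methods. Fold changes are log2 estimates ± their standard error in the model. Levels per extract are log2 values on a scale where the mean of the 3 control 5 dpf extracts is 0. Being derived from ratios, they can be compared between extracts for one gene and not between genes, and the number of arrays limits their precision. A gene is said to have risen or fallen where limma gave a Benjamini-Hochberg adjusted p under 0.05 over all 8445 genes. Where a call was lost when an extract or the direct array was left out, this is stated with the value that had the highest adjusted p. The 12 largest rises and falls were named among genes whose extracts did not overlap between ages, so a lack of overlap in them follows from the choice. Levels of all 8 dpf extracts were tied to 5 dpf through the same 4 arrays. A lack of overlap between ages is therefore a description and does not stand for 3 independent comparisons. A larger share of one cell type and more RNA per cell cannot be told apart in these pooled eyes.

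From 5 to 8 dpf, 381 transcripts were higher and 267 were lower in PTU-exposed eyes, at an adjusted p under 0.05 and an absolute log2 fold change over 0.75 (1.68-fold). These 648 were 3.83% of the 16913 probes. Averaged over the probes of each gene and with no fold threshold, 741 genes rose (8.77% of 8445) and 565 fell (6.69%). The median over all genes was 0.01. In control eyes, 394 genes rose (4.67%) and 595 fell (7.05%) over the same days. Levels of all 3 PTU 8 dpf extracts lay above those of all 3 PTU 5 dpf extracts for 1595 genes (18.9%) and below them for 1300 (15.4%). The number of calls depended on single extracts. Genes that rose or fell were 146 and 107 without C5-1, 91 and 28 without P5-1, 382 and 202 without P8-2, 268 and 201 without P8-3, and 323 and 217 without the direct array. Transcripts were 205 higher and 137 lower without C5-1, 151 and 41 without P5-1, and 245 and 172 without P8-3. Of the genes called, 75 that rose and 23 that fell kept their call with any single extract left out, and 244 and 138 with any of the 10 extracts that were on 2 arrays each.

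**Figure D1:**
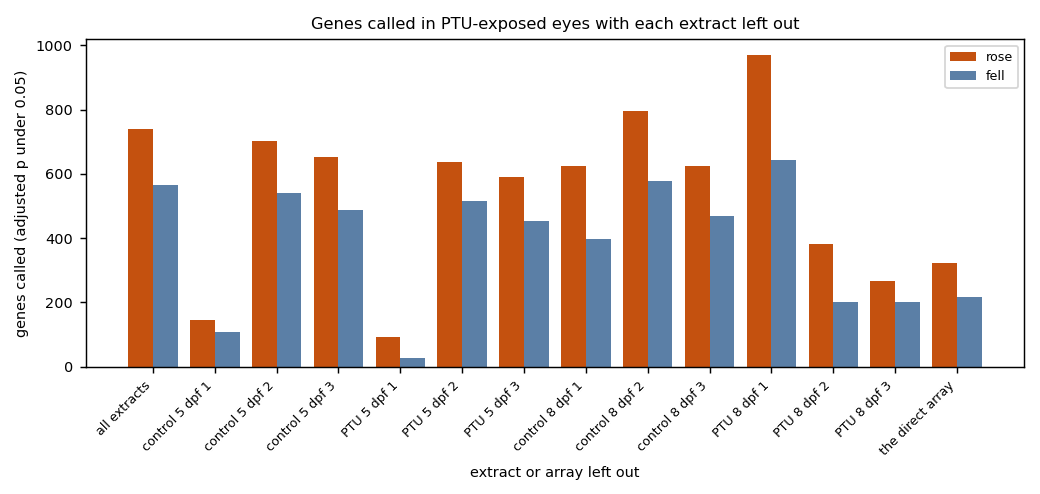
Bars give the number of genes that rose and fell in PTU-exposed eyes from 5 to 8 dpf (adjusted p under 0.05), with all extracts and with each extract or the direct array left out (x axis). Calls were fewest without P5-1 (91 rose, 28 fell) and without C5-1 (146 and 107).

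**Figure D2:**
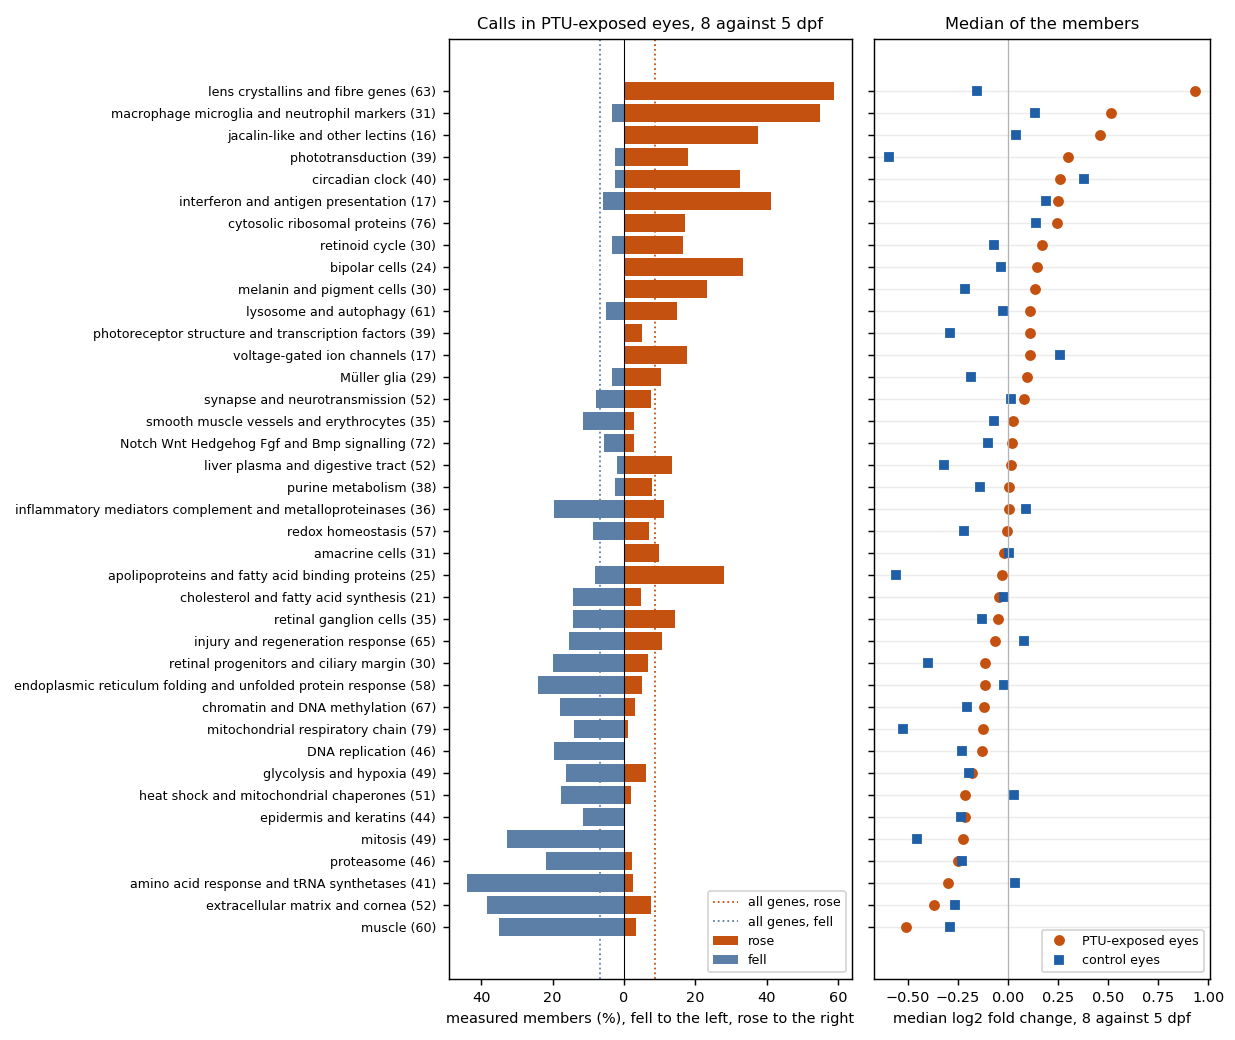
Left, the percentage of measured members of each gene list that rose (right of 0) or fell (left of 0) in PTU-exposed eyes, with the share over all genes dotted (8.77% rose, 6.69% fell). Right, the median log2 fold change of each list from 5 to 8 dpf in PTU-exposed eyes (circles) and control eyes (squares); lists with at least 15 measured genes (number in brackets) are ordered by the PTU median, from 0.93 for lens genes to −0.51 for muscle genes.

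Lens genes had the highest median change of the gene lists in PTU-exposed eyes. Of 63 measured genes for crystallins and fibre cell proteins, 37 rose (58.7%, against 8.77% of all genes) and 0 fell, with a median of 0.93 in PTU-exposed and −0.15 in control eyes. By family, 8 of 10 beta crystallins, 11 of 27 gamma M crystallins, all 5 other gamma crystallins, the single alpha crystallin measured and 12 of 20 other lens genes rose. Their medians were 0.90 for beta, 1.06 for gamma M and 0.61 for the other gamma crystallins, and 0.68 for the other lens genes. The gamma crystallin gene crygm1 had levels of −2.55, −2.78 and −2.73 at 5 dpf and −0.59, −0.31 and 0.03 at 8 dpf and rose by 2.41 ± 0.14, adjusted p = 1.08e-07, a 5.31-fold change. All 3 extracts were below the mean of control 5 dpf at the end of exposure, and the direct array alone gave 2.64. Levels of grifin, a galectin-related protein of the lens, were −2.57, −2.36 and −2.31 at 5 dpf and 0.44, −0.11 and −0.18 at 8 dpf (2.38 ± 0.16, adjusted p = 2.87e-07). For cryaa, which encodes the small heat shock protein alpha A crystallin, they were −2.29, −2.11 and −1.88 at 5 dpf and −0.17, −0.14 and −0.07 at 8 dpf (1.97 ± 0.16, adjusted p = 1.87e-06). At 8 dpf the cryaa levels of all 3 exposed extracts were near that of control 5 dpf, which are younger eyes, and they did not overlap with those of PTU 5 dpf. The beta crystallin cryba1l2 (−1.77, −2.05 and −1.93 at 5 dpf and −0.20, 0.41 and 0.29 at 8 dpf) rose by 2.06 ± 0.14, adjusted p = 2.87e-07, and crygn1, a gamma N crystallin, by 1.83 ± 0.11, adjusted p = 1.35e-07. The water channel of the fibre cells, mipa (aquaporin 0), had levels of −2.08, −2.11 and −1.99 at 5 dpf and −0.73, −0.73 and −0.61 at 8 dpf and rose by 1.43 ± 0.11, adjusted p = 8.98e-07. None of these 6 calls was lost when an extract or the direct array was left out.

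The 16 gamma M crystallins that did not pass were all of the crygm2 group, whose near-identical copies can share probes, so that single members are uncertain. Also not called were crybb1 and cryba4 among the beta crystallins, and sparc, gja8b, lim2.2, epha2a, prox1a, gja8a, lctlb and vim among the other lens genes. The other fibre cell genes that rose were lim2.5, lim2.1, lim2.4, lim2.3, mipb, dnase1l1l, bfsp2, lctla, lgsn and birc7. Probes of cryaa ranged from 1.13 to 2.47 and those of cryba1l2 from 1.07 to 2.58, all in one direction. The number of lens genes that rose was 20 (without the direct array), 13 (without C5-1), 10 (without P5-1), 17 (without P8-2) and 14 (without P8-3). 24 lens genes rose with the replicate number as a block. In control eyes, 6 of the 63 lens genes rose and 3 fell. Some of the genes described above rose there too, by smaller amounts than with PTU. These were crygm1 (1.13 ± 0.14, adjusted p = 0.000131), grifin (0.91 ± 0.16, adjusted p = 0.00188) and cryba1l2 (0.66 ± 0.14, adjusted p = 0.00576). The control change of crygn1 did not pass (0.20 ± 0.11, adjusted p = 0.268), and those of cryaa and mipa were negative. The change from 5 to 8 dpf was more positive in PTU-exposed than in control eyes for 39 of the 63 lens genes and more negative for 2. These are calls at an adjusted p of the difference under 0.05, against 11.9% and 6.92% of all genes. The median PTU effect on the same genes, PTU over control at one age, was −1.86 at 5 dpf and −0.75 at 8 dpf, both from arrays that also enter the contrast of ages. At 8 dpf the PTU effect was −1.41 ± 0.11 for crygm1 (adjusted p = 2.29e-07) and −0.97 ± 0.13 for grifin (adjusted p = 3.44e-05). It was −0.48 ± 0.11 for cryba1l2 (adjusted p = 0.00341) and did not pass for crygn1 (−0.18 ± 0.09, adjusted p = 0.127).

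**Figure D3:**
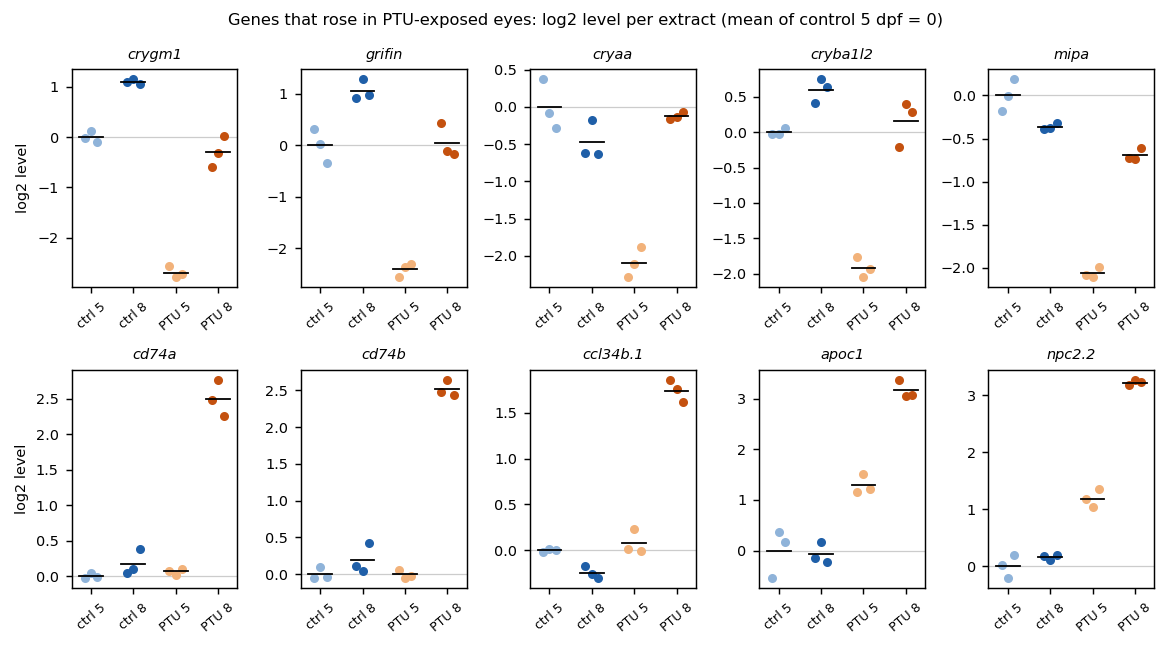
Log2 level (y axis, mean of control 5 dpf = 0) of 10 genes that rose in PTU-exposed eyes, with a point for each of the 3 extracts of control and PTU eyes at 5 and 8 dpf and a bar for their mean. The 5 lens genes (top) lay between −2.78 and −1.77 in PTU 5 dpf, below both control groups, while the 5 genes below them were highest in PTU 8 dpf.

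Genes of macrophages and of antigen presentation also rose. Of 31 measured markers of macrophages, microglia and neutrophils, 17 rose (54.8%) and 1 fell (median 0.52 in PTU-exposed and 0.14 in control eyes), and of 17 genes of interferon signalling and antigen presentation 7 rose (41.2%) and 1 fell. Over all genes 8.77% rose and 6.69% fell. The lists share members, and cd74a, cd74b and irf8 count among the rises of both. The invariant chain of MHC class II is encoded by cd74a and cd74b. Levels of cd74b were 0.06, −0.06 and −0.02 at 5 dpf and 2.48, 2.64 and 2.43 at 8 dpf, a rise of 2.46 ± 0.12, adjusted p = 2.53e-08 or 5.50-fold, and those of cd74a were 0.07, 0.02 and 0.10 at 5 dpf and 2.48, 2.76 and 2.26 at 8 dpf (2.38 ± 0.15, adjusted p = 1.35e-07). Both genes were near the mean of control 5 dpf in all 3 extracts at the end of exposure and well above it in all 3 after recovery. A chemokine gene, ccl34b.1, showed the same course, with levels of 0.01, 0.23 and −0.01 at 5 dpf and 1.85, 1.76 and 1.61 at 8 dpf (1.69 ± 0.11, adjusted p = 2.62e-07). The light chain of MHC class I, b2m, had levels of 0.42, 0.40 and 0.26 at 5 dpf and 1.12, 1.32 and 1.43 at 8 dpf and rose by 0.94 ± 0.12, adjusted p = 0.000192. Other markers were already above control at 5 dpf and went higher. Levels of grna.2, a granulin, were 2.69, 3.07 and 3.06 at 5 dpf and 4.2, 4.13 and 4.26 at 8 dpf (1.3 ± 0.12, adjusted p = 1.07e-05), and grna rose by 1.60 ± 0.18, adjusted p = 6.59e-05. Properdin (cfp), which stabilises complement convertases, had levels of 1.35, 1.40 and 1.29 at 5 dpf and 3.30, 2.85 and 2.73 at 8 dpf (1.54 ± 0.19, adjusted p = 0.000175). irf8, a transcription factor of the macrophage lineage, rose by 0.82 ± 0.16, adjusted p = 0.00320.

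The 17 markers that rose were cd74b, cd74a, ccl34b.1, lgals3bp.1, grna.2, spi1a, wasb, fcer1gl, lgals9l1, spi1b, fcer1g, lcp1, irf8, havcr1, coro1a, cyba and arpc1b, and mmp13a, a collagenase gene, fell. Macrophage genes mpeg1.1 and mfap4.1 and the neutrophil genes lyz and npsn were among those not called. The mean level of the 5 measured defining macrophage markers was −0.13 to 0.08 in control 5 dpf, 0.09 to 0.23 in control 8 dpf, 1.36 to 1.42 in PTU 5 dpf and 1.74 to 2.02 in PTU 8 dpf, so that exposed eyes lay above control eyes at both ages. Of these 5, spi1b, coro1a and lcp1 rose in PTU-exposed eyes, while mpeg1.1 and mfap4.1 were not called. irf8 (0.90, adjusted p = 0.100) did not pass without C5-1 or P5-1. Macrophage and interferon list members that rose numbered 17 and 4 (without the direct array), 12 and 4 (without C5-1), 11 and 3 (without P5-1) and 17 and 4 (without P8-3). In control eyes, 2 of the 31 markers rose and 0 fell. The change was more positive in PTU-exposed than in control eyes for 17 of them and more negative for 3 (11.9% and 6.92% of all genes). Rises and falls in control eyes numbered 1 and 0 for the interferon list (median 0.19, against 0.25 with PTU). In that list the change was more positive with PTU for 4 genes and more negative for 1.

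Some genes of lysosomes, lectins and lipid carriers rose as well. npc2.2, a gene for a cholesterol-binding protein of the lysosome, had levels of 1.17, 1.03 and 1.35 at 5 dpf and 3.18, 3.27 and 3.23 at 8 dpf and rose by 2.04 ± 0.16, adjusted p = 1.31e-06. The apolipoprotein gene apoc1 had levels of 1.15, 1.51 and 1.22 at 5 dpf and 3.36, 3.06 and 3.08 at 8 dpf (2.1 ± 0.20, adjusted p = 1.80e-05). fabp4b, a fatty acid binding protein, went from below to above the control level, with −1.25, −0.98 and −1.2 at 5 dpf and 0.55, 0.67 and 1.11 at 8 dpf (2.01 ± 0.15, adjusted p = 7.51e-07). Of 16 lectins and related genes 6 rose (37.5%), among them lgals3bp.1 (1.32 ± 0.17, adjusted p = 0.000237), lgals3bp.3 (1.28 ± 0.11, adjusted p = 8.46e-06) and lgals9l1 (1.01 ± 0.16, adjusted p = 0.00101), which encode galectin-binding proteins and a galectin, and none fell (median 0.46). Of 61 lysosome and autophagy genes, 9 rose (14.8%) and 3 fell (4.92%), against 8.77% and 6.69% of all genes. Of 25 apolipoproteins and fatty acid binding proteins 7 rose (28%) and 2 fell (8%). In the last group clu, the secreted chaperone clusterin, and fabp4a fell. lgals9l1 (0.81, adjusted p = 0.0769) did not pass without C5-1. Lectin, lysosome and lipid-carrier genes that rose numbered 2, 2 and 3 (without C5-1) and 3, 3 and 2 (without P5-1). With the array of C8-2 and P8-1 left out, 14 lysosome genes rose. Among control eyes, rises and falls numbered 3 and 0 for lectins (median 0.04, against 0.46 with PTU), 3 and 4 for lysosome genes (median −0.03, against 0.11 with PTU) and 3 and 6 for lipid carriers (median −0.56, against −0.03 with PTU).

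The rise first in size over all genes, 3.31 ± 0.19, adjusted p = 9.40e-08 or 9.92-fold, was that of si:dkey-21e2.10, a protein-coding gene with no descriptive name. Its levels were 0.19, 0.24 and 0.54 at 5 dpf and 3.99, 3.46 and 3.5 at 8 dpf, and those of its neighbour in name, si:dkey-21e2.14, were 0.28, 0.30 and 0.22 at 5 dpf and 2.95, 2.63 and 2.56 at 8 dpf (2.37 ± 0.21, adjusted p = 5.93e-06). Their changes in control eyes were 0.25 and 0.07. Of the 3205 probes with no gene symbol, 64 were higher and 38 lower, and the 4 with the largest rises changed by 2.35 ± 0.20, 2.12 ± 0.27, 2.08 ± 0.20 and 2.02 ± 0.13. The 4 with the largest falls changed by −1.69 ± 0.22, −1.58 ± 0.22, −1.47 ± 0.31 and −1.37 ± 0.20.

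Among photoreceptor genes, several of the cone cascade rose, whereas most opsins did not pass the test. Of 39 measured phototransduction genes 7 rose (17.9%) and 1 fell (2.56%), against 8.77% and 6.69% of all genes. Their median was 0.30 in PTU-exposed and −0.59 in control eyes. The inhibitory subunit of the cone phosphodiesterase, pde6ha, had levels of −4.58, −5.35 and −4.94 at 5 dpf and −3.46, −2.24 and −2.05 at 8 dpf and rose by 2.25 ± 0.41, adjusted p = 0.00215, a 4.76-fold change that left all 3 extracts far below the control level. A cone transducin subunit, gngt2a (−2.22, −2.0 and −2.64 at 5 dpf and −1.37, −0.44 and −0.45 at 8 dpf), rose by 1.64 ± 0.26, adjusted p = 0.000837. For the guanylate cyclase activator guca1c, levels were −3.12, −3.51 and −4.13 at 5 dpf and −2.64, −1.93 and −1.43 at 8 dpf (1.45 ± 0.30, adjusted p = 0.00498). pde6ga, the inhibitory subunit of the rod phosphodiesterase, rose by 0.97 ± 0.19, adjusted p = 0.00389, with levels of −0.15, −0.15 and −0.70 at 5 dpf and 0.25, 0.79 and 0.80 at 8 dpf. In each of these 4 genes P8-1 was the lowest of the PTU extracts at 8 dpf, and it still lay above all PTU extracts at 5 dpf. Against control 8 dpf, PTU 8 dpf was lower for pde6ha (−2.18 ± 0.32, adjusted p = 0.000114) and guca1c (−2.70 ± 0.24, adjusted p = 7.07e-07). It was higher for pde6ga (0.89 ± 0.15, adjusted p = 0.000422), and gngt2a did not differ by the test (0.07 ± 0.20, adjusted p = 0.824). The 3 other rises were pdca, guca1b and rgs9bp, and gnb1b fell. pde6ha (2.51, adjusted p = 0.0969) did not pass without P5-1. gngt2a (1.81, adjusted p = 0.0651) and pde6ga (0.79, adjusted p = 0.148) did not pass without C5-1 or P5-1. guca1c (1.24, adjusted p = 0.133) did not pass without C5-1, P5-1 or P8-3. The number of phototransduction genes that rose was 4 (without the direct array), 1 (without C5-1), 0 (without P5-1), 11 (without P8-1) and 3 (without P8-3). It was 11 without the array of C8-2 and P8-1, which had the largest residual spread of the 14, and 11 with the most variable probe of each gene. In control eyes 0 of these genes rose and 19 fell. The change was more positive in PTU-exposed than in control eyes for 23 of them and more negative for 0 (11.9% and 6.92% of all genes).

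**Figure D4:**
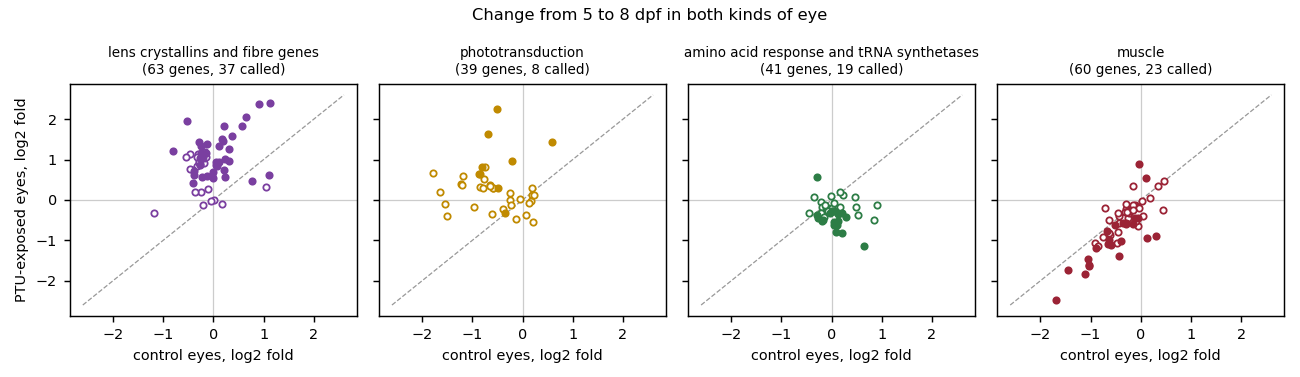
Each point is a measured gene, with its log2 fold change from 5 to 8 dpf in control eyes on the x axis and in PTU-exposed eyes on the y axis (filled, called in PTU-exposed eyes; dashed line, equal change). Lens genes (median 0.93 with PTU) and phototransduction genes (0.30) lay mostly above the line, genes of the amino acid response (−0.30) mostly below it, and muscle genes (−0.51) on both sides; the axes share arrays.

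The opsins, the light-sensitive proteins themselves, gave 1 rise and 1 fall among the 6 measured (16.7% each, against 8.77% and 6.69% of all genes). rhol, a rhodopsin-like opsin gene, had levels of −0.83, −0.87 and −1.09 at 5 dpf and −0.45, −0.05 and 0.04 at 8 dpf and rose by 0.74 ± 0.14, adjusted p = 0.00318. Its 3 probes ranged from 0.12 to 1.11, so the size of this rise differed widely between probes. The blue cone opsin opn1sw2 had levels of 0.03, −0.24 and −0.39 at 5 dpf and −1.04, −0.85 and −0.74 at 8 dpf and fell by 0.73 ± 0.22, adjusted p = 0.0332. The others did not pass. For the red cone opsin opn1lw2, levels were −0.42, −0.73 and −0.49 at 5 dpf and −1.48, −0.47 and −0.63 at 8 dpf (−0.33 ± 0.20, adjusted p = 0.309), and for the UV cone opsin opn1sw1 −2.20, −2.43 and −2.45 at 5 dpf and −3.23, −1.85 and −2.39 at 8 dpf (−0.31 ± 0.29, adjusted p = 0.537), with groups that overlapped. The green cone opsins opn1mw1 (−0.60 ± 0.30, adjusted p = 0.211) and opn1mw2 (−0.42 ± 0.26, adjusted p = 0.316) are close copies, and their probes can share signal. In control eyes 5 of the 6 fell (median −1.12, against −0.38 with PTU). There opn1sw2 fell by 0.94 ± 0.22, adjusted p = 0.0110, and the difference from its change in exposed eyes did not pass (0.21 ± 0.23, adjusted p = 0.582). The green opsin opn1mw1 fell by 1.3 ± 0.30, adjusted p = 0.0117 in control eyes. There the red opsin opn1lw2 fell by 2.43 ± 0.20, adjusted p = 1.78e-05, and its change differed from that of exposed eyes by 2.09 ± 0.21, adjusted p = 2.79e-05. The difference was 1.51 ± 0.15, adjusted p = 2.24e-05 for rhol and 1.43 ± 0.31, adjusted p = 0.00573 for opn1sw1, the last of which did not pass without C5-1 (1.1, adjusted p = 0.0726) or C8-3. Of 7 non-visual opsins, rgrb, a retinal-binding opsin known from the pigment epithelium and Müller glia of mammals, rose by 0.82 ± 0.14, adjusted p = 0.00147, and opn6a fell by 0.57 ± 0.17, adjusted p = 0.0385. rhol (0.81, adjusted p = 0.113) did not pass without C5-1 or P5-1. opn1sw2 (−0.47, adjusted p = 0.336) did not pass without C5-1, P5-1, P5-2, C8-1, C8-3, P8-1, P8-2, P8-3 or the direct array. rgrb (0.81, adjusted p = 0.0655) did not pass without P5-1. opn6a (−0.61, adjusted p = 0.274) did not pass without C5-1, P5-1, P5-2, C8-1, C8-3, P8-2, P8-3 or the direct array. opn1sw2 (−1.18, adjusted p = 0.103) did not pass in control eyes without C5-1, P5-1, C8-1 or P8-2. opn1mw1 (−0.84, adjusted p = 0.204) did not pass in control eyes without P5-1, C8-1 or C8-3. Control eyes gave rises and falls of 0 and 0 for the non-visual opsins (median 0.02, against 0.11 with PTU).

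Of 30 genes of retinoid metabolism, 5 rose (16.7%) and 1 fell (3.33%), against 8.77% and 6.69% of all genes. Their median was 0.17 in PTU-exposed and −0.07 in control eyes. The isomerohydrolase of the pigment epithelium, rpe65a, had levels of −2.47, −2.6 and −2.52 at 5 dpf and −1.52, −1.52 and −1.22 at 8 dpf and rose by 1.06 ± 0.17, adjusted p = 0.000827. cyp26a1, which degrades retinoic acid, had levels of −0.37, −0.62 and −0.60 at 5 dpf and 0.48, 0.49 and 0.56 at 8 dpf (1.00 ± 0.09, adjusted p = 1.09e-05). For both genes the extracts at 8 dpf lay above all those at 5 dpf, and rpe65a was still below the mean of control 5 dpf. Smaller rises were those of the retinol receptor stra6 (0.77 ± 0.15, adjusted p = 0.00324) and of the retinoid carrier between photoreceptors and pigment epithelium, rbp3 (0.88 ± 0.20, adjusted p = 0.00865). Probes of rbp3 ranged from 0.34 to 1.38. In the outer segment and transcription factor list, 2 of 39 rose (5.13%, below the share of all genes) and none fell. These were nxnl1, which encodes a cone viability factor (1.17 ± 0.17, adjusted p = 0.000395), and fabp7b (0.62 ± 0.09, adjusted p = 0.000716). The pigment cell list had 7 rises among 30 (23.3%) and no fall, among them pmelb, a structural protein of melanosomes (0.86 ± 0.15, adjusted p = 0.00188, with levels of −0.36, −0.54 and −0.33 at 5 dpf and −0.02, 0.75 and 0.65 at 8 dpf). gchfr (0.70 ± 0.17, adjusted p = 0.0136) rose too, with extracts that overlapped. stra6 (0.90, adjusted p = 0.0700) did not pass without P5-1 or P8-3. rbp3 (0.80, adjusted p = 0.180) and gchfr (0.48, adjusted p = 0.458) did not pass without C5-1, P5-1, P8-2, P8-3 or the direct array. nxnl1 (1.19, adjusted p = 0.0590) and fabp7b (0.42, adjusted p = 0.158) did not pass without P5-1. pmelb (0.97, adjusted p = 0.0848) did not pass without C5-1 or P5-1. Retinoid and pigment cell genes that rose numbered 3 and 3 (without the direct array), 3 and 2 (without C5-1), 2 and 0 (without P5-1), 5 and 4 (without P5-3), 5 and 4 (without C8-1), 9 and 6 (without C8-2), 9 and 7 (without P8-1), 3 and 3 (without P8-2) and 2 and 3 (without P8-3). With the array of C8-2 and P8-1 left out, 10 retinoid genes rose. Control eyes had rises and falls of 1 and 6 for retinoid genes (median −0.07, against 0.17 with PTU), 0 and 12 for the outer segment and transcription factor list (median −0.29, against 0.11 with PTU) and 2 and 8 for pigment cell genes (median −0.22, against 0.14 with PTU). Genes with a more positive and a more negative change with PTU were 10 and 2 for the retinoid list, 17 and 0 for the outer segment list and 15 and 1 for the pigment cell list. Over all genes these shares were 11.9% and 6.92%.

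In the inner retina, the bipolar cell markers that were called all rose. Of 24 bipolar cell markers 8 rose (33.3%) and none fell (median 0.15), against 8.77% and 6.69% of all genes. The lowest change in this list, −0.79 for cabp5a, was not called. A fall of 1 bipolar cell marker was called with arrays scaled, without C5-3 and without P5-3 in turn. trpm1b, the cation channel of ON bipolar cells, had levels of −0.50, −0.59 and −0.47 at 5 dpf and 0.05, 0.23 and 0.34 at 8 dpf and rose by 0.71 ± 0.10, adjusted p = 0.000318. cabp5b, a calcium-binding protein (0.90 ± 0.20, adjusted p = 0.00778), lrit1a, a synaptic membrane protein (0.83 ± 0.17, adjusted p = 0.00392, with probes from 0.23 to 1.12), and isl1a, a transcription factor (0.44 ± 0.10, adjusted p = 0.00822), rose with it. Its paralogue trpm1a, also a melanocyte gene, rose by 1.37 ± 0.34, adjusted p = 0.0149, with P8-1 at 1.47 and the others at −0.15 and 0.17. Among 31 amacrine cell genes 3 rose (9.68%, near the share of all genes) and none fell, namely the transcription factors pax6a (0.63 ± 0.10, adjusted p = 0.000827) and pax6b (0.53 ± 0.11, adjusted p = 0.00412) and the calcium buffer pvalb9 (0.80 ± 0.16, adjusted p = 0.00364). Of 5 horizontal cell genes, rem1 (0.69 ± 0.08, adjusted p = 9.71e-05) and the connexin gja9b (0.40 ± 0.10, adjusted p = 0.0120) rose. trpm1b (0.64, adjusted p = 0.0776), trpm1a (2.1, adjusted p = 0.0688) and pax6a (0.65, adjusted p = 0.0798) did not pass without P5-1. cabp5b (0.74, adjusted p = 0.188), isl1a (0.38, adjusted p = 0.186) and gja9b (0.42, adjusted p = 0.172) did not pass without C5-1, P5-1, P8-2, P8-3 or the direct array. lrit1a (0.71, adjusted p = 0.125) and pax6b (0.45, adjusted p = 0.180) did not pass without C5-1, P5-1 or P8-3. pvalb9 (0.75, adjusted p = 0.170) did not pass without P5-1 or P8-3. Bipolar and amacrine cell markers that rose numbered 3 and 3 (without the direct array), 2 and 2 (without C5-1), 0 and 0 (without P5-1), 4 and 3 (without P8-2) and 2 and 1 (without P8-3). With arrays taken as independent, 5 amacrine cell genes rose. In control eyes the rises and falls were 1 and 2 for bipolar (median −0.03, against 0.15 with PTU), 1 and 1 for amacrine (median 0.01, against −0.02 with PTU) and 0 and 0 for horizontal cell markers (median 0.01, against −0.003 with PTU).

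Ganglion cell genes moved in both directions, with 5 rises and 5 falls among 35 (14.3% each, against 8.77% and 6.69% of all genes). The transcription factors isl2b (−0.82, −0.93 and −1.22 at 5 dpf and −0.13, −0.07 and −0.02 at 8 dpf, a rise of 0.88 ± 0.12, adjusted p = 0.000318) and pou4f1 (0.56 ± 0.08, adjusted p = 0.000689) and the RNA-binding rbpms2b (0.85 ± 0.14, adjusted p = 0.00131) rose, and the neuronal tubulin tubb2b fell by 0.70 ± 0.10, adjusted p = 0.000395. In control eyes tubb2b fell by 0.89 ± 0.10, adjusted p = 7.20e-05. Of 30 genes of retinal progenitors and the ciliary margin, 6 fell (20%) and 2 rose, while in control eyes 14 fell and 0 rose (medians −0.11 in PTU-exposed and −0.40 in control eyes). The change was more positive in PTU-exposed than in control eyes for 14 of them and more negative for 1 (11.9% and 6.92% of all genes). sox11b, a transcription factor of immature neurons, had levels of 2.66, 2.39 and 2.36 at 5 dpf and 1.15, 0.60 and 0.64 at 8 dpf and fell by 1.72 ± 0.14, adjusted p = 4.25e-06, a 3.28-fold change, against −0.46 ± 0.14, adjusted p = 0.0514 in control eyes (difference −1.25 ± 0.15, adjusted p = 9.95e-05). The chromatin protein hmga1a fell by 0.99 ± 0.16, adjusted p = 0.000950, and it fell by 1.11 ± 0.16, adjusted p = 0.000415 in control eyes. Of 29 Müller glia genes, 3 rose (10.3%) and 1 fell (3.45%), against 8.77% and 6.69% of all genes. The fall was that of cd9b, a tetraspanin, with levels of 0.84, 0.84 and 0.97 at 5 dpf and 0.20, −0.01 and −0.28 at 8 dpf (−0.96 ± 0.13, adjusted p = 0.000337), and among the rises was the Notch target her15.1 (0.58 ± 0.15, adjusted p = 0.0196). pou4f1 (0.49, adjusted p = 0.0622) did not pass without C5-1. rbpms2b (0.98, adjusted p = 0.0780) did not pass without C5-1 or P5-1. tubb2b (−0.73, adjusted p = 0.0546) and hmga1a (−0.95, adjusted p = 0.105) did not pass without P5-1. her15.1 (0.46, adjusted p = 0.461) did not pass without C5-1, P5-1, P8-2, P8-3 or the direct array. Ganglion cell genes that rose, ganglion cell genes that fell and progenitor genes that fell numbered 3, 3 and 5 (without the direct array), 1, 3 and 3 (without C5-1), 2, 0 and 1 (without P5-1), 4, 2 and 4 (without P8-2) and 3, 2 and 5 (without P8-3). Müller glia genes that rose and fell numbered 0 and 2 (without the direct array), 0 and 1 (without C5-1), 0 and 1 (without P5-1), 1 and 2 (without P5-3), 3 and 4 (without C8-2), 3 and 5 (without P8-1), 0 and 1 (without P8-2) and 0 and 1 (without P8-3). With arrays scaled, 4 Müller glia genes fell. With arrays taken as independent, 3 Müller glia genes fell. With a dye effect, 4 Müller glia genes fell. With the most variable probe of each gene, 2 Müller glia genes fell. 0 Müller glia genes rose with the replicate number as a block. With the array of C8-2 and P8-1 left out, 5 Müller glia genes fell. Rises and falls of control eyes were 0 and 5 for ganglion cell (median −0.13, against −0.05 with PTU) and 2 and 3 for Müller glia genes (median −0.19, against 0.10 with PTU).

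Several groups of genes for tRNA charging and protein folding fell in PTU-exposed eyes. Of 41 genes of the amino acid response and tRNA charging 18 fell (43.9%, against 6.69% of all genes) and 1 rose (median −0.30 in PTU-exposed and 0.04 in control eyes). Among them were 12 of the 15 cytosolic aminoacyl-tRNA synthetases, the enzymes that load tRNAs, namely eprs1, tars1, rars1, farsa, iars1, qars1, wars1, farsb, kars1, cars1, aars1 and yars1, while sars1, mars1 and gars1 were not called. eprs1, the glutamyl-prolyl enzyme, had levels of 1.67, 1.46 and 1.63 at 5 dpf and 1.04, 0.63 and 0.81 at 8 dpf and fell by 0.81 ± 0.09, adjusted p = 6.90e-05. qars1 fell by 0.50 ± 0.08, adjusted p = 0.000987. The stress-induced transcription factor atf3 had levels of 3.91, 3.34 and 4.11 at 5 dpf and 2.75, 2.67 and 2.66 at 8 dpf (−1.14 ± 0.17, adjusted p = 0.000634), with all 3 extracts at 8 dpf below those at 5 dpf and still far above the mean of control 5 dpf. atf4b, the central factor of the amino acid response, had levels of 0.89, 0.80 and 0.83 at 5 dpf and 0.29, 0.46 and 0.29 at 8 dpf and fell by 0.53 ± 0.07, adjusted p = 0.000282. The other genes of this response that fell were mthfd2, cth, cebpg and atf5a, and slc3a2a, a subunit of amino acid transporters, rose. In all, 6 of the 26 measured genes of the response other than synthetases fell. Not called were trib3, chac1, psat1, aldh18a1, aimp2, atf4a, vldlr, slc3a2b, psph, pycr1b, eef1e1, cebpb, aimp1a, asns, phgdh, cbsb, mthfd1b, pycr1a and slc38a2. qars1 (−0.50, adjusted p = 0.0946), atf3 (−0.86, adjusted p = 0.143) and atf4b (−0.46, adjusted p = 0.0897) did not pass without P5-1. The number of falls in this list was 5 (without C5-1), 1 (without P5-1), 10 (without P8-2) and 9 (without P8-3). Control eyes had 5 rises and 3 falls. In the whole list, the change was more positive in PTU-exposed than in control eyes for 2 of the 41 genes and more negative for 19. Over all genes these shares were 11.9% and 6.92%.

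In the endoplasmic reticulum, 14 of 58 genes of folding and the unfolded protein response fell (24.1%) and 3 rose (5.17%). Of all genes 6.69% fell and 8.77% rose. Those that fell were hyou1, xbp1, canx, hsp90b1, calr3b, atf4b, hspa5, txndc5, uggt2, ddost, ddit3, dnajb11, ssr1 and pdia4. hyou1, a chaperone of the Hsp70 class, had levels of 1.36, 1.23 and 1.2 at 5 dpf and 0.55, 0.02 and 0.40 at 8 dpf and fell by 0.90 ± 0.13, adjusted p = 0.000557, and the lectin chaperone canx fell by 0.61 ± 0.11, adjusted p = 0.00145. sec61g, a subunit of the translocation channel, rose by 0.86 ± 0.12, adjusted p = 0.000300. Of 51 cytosolic and mitochondrial chaperones 9 fell (17.6%) and 1 rose. hspd1, the mitochondrial chaperonin Hsp60, had levels of 1.37, 0.76 and 1.17 at 5 dpf and −0.13, −0.11 and 0.03 at 8 dpf (−1.31 ± 0.20, adjusted p = 0.000591), which put all 3 extracts at 8 dpf near the mean of control 5 dpf. The mitochondrial protease lonp1 fell by 0.79 ± 0.14, adjusted p = 0.00216, and hspa4a, a cytosolic chaperone, fell by 0.79 ± 0.14, adjusted p = 0.00231. Of 46 proteasome genes 10 fell (21.7%) and 1 rose, with psmd2 (−0.64 ± 0.11, adjusted p = 0.00124), a regulatory subunit, and psmb5 (−0.46 ± 0.08, adjusted p = 0.00133), a catalytic one, among the falls. canx (−0.43, adjusted p = 0.176), sec61g (0.80, adjusted p = 0.0688), hspd1 (−1.19, adjusted p = 0.0607), lonp1 (−0.72, adjusted p = 0.138) and psmd2 (−0.67, adjusted p = 0.0860) did not pass without P5-1. hspa4a (−0.79, adjusted p = 0.113) and psmb5 (−0.42, adjusted p = 0.140) did not pass without C5-1 or P5-1. Reticulum, chaperone and proteasome genes that fell numbered 7, 3 and 5 (without the direct array), 4, 2 and 1 (without C5-1), 1, 0 and 0 (without P5-1), 8, 5 and 6 (without C8-1), 9, 6 and 12 (without P8-1), 5, 3 and 2 (without P8-2) and 7, 4 and 5 (without P8-3). With the most variable probe of each gene, 9 reticulum genes fell. 9 reticulum genes fell, 5 chaperone genes fell and 5 proteasome genes fell with the replicate number as a block.

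In these lists, control rises and falls were 4 and 3 for the reticulum (median −0.02, against −0.11 with PTU), 4 and 2 for the chaperones (median 0.03, against −0.21 with PTU) and 1 and 5 for the proteasome (median −0.23, against −0.25 with PTU). The change of the chaperones was more positive in PTU-exposed than in control eyes for 1 of them and more negative for 15. For the 58 reticulum genes these numbers were 5 and 12, and for the 46 proteasome genes 1 and 5. Over all genes, 11.9% were more positive and 6.92% more negative with PTU. Of 57 redox genes 4 rose (7.02%) and 5 fell (8.77%), shares near those of all genes. prdx1, a peroxiredoxin, had levels of 0.03, 0.27 and 0.00 at 5 dpf and −1.32, −1.48 and −0.94 at 8 dpf and fell by 1.25 ± 0.19, adjusted p = 0.000690, with all extracts at 8 dpf below those at 5 dpf, and it fell by 0.87 ± 0.19, adjusted p = 0.00811 in control eyes. Thioredoxin (txnb) had levels of 2.28, 2.28 and 2.07 at 5 dpf and 1.24, 1.24 and 1.44 at 8 dpf (−0.90 ± 0.16, adjusted p = 0.00188). Of 65 genes of injury and regeneration 10 fell (15.4%, against 6.69% of all genes) and 7 rose (10.8%, near the 8.77% of all genes). The transcription factor jun had levels of 2.16, 1.90 and 2.5 at 5 dpf and 1.22, 1.43 and 1.37 at 8 dpf and fell by 0.81 ± 0.13, adjusted p = 0.000950. The growth factor hbegfa fell by 0.52 ± 0.09, adjusted p = 0.00121, while bbc3, which promotes apoptosis, rose by 0.63 ± 0.08, adjusted p = 0.000249. Among 36 inflammatory mediators 7 fell (19.4%) and 4 rose, among them ptgs2b, a cyclooxygenase, which fell by 0.77 ± 0.12, adjusted p = 0.000930, and the complement component c7b, which fell by 0.82 ± 0.13, adjusted p = 0.000802. txnb (−0.85, adjusted p = 0.140), jun (−0.87, adjusted p = 0.0843), hbegfa (−0.50, adjusted p = 0.138), ptgs2b (−0.61, adjusted p = 0.0876) and c7b (−0.75, adjusted p = 0.0655) did not pass without P5-1. Redox, injury and inflammatory genes that fell numbered 5, 5 and 4 (without the direct array), 2, 4 and 4 (without C5-1), 1, 0 and 0 (without P5-1), 5, 6 and 4 (without P8-2) and 5, 6 and 3 (without P8-3). Those that rose numbered, in the same order, 1, 4 and 3 (without the direct array), 0, 1 and 2 (without C5-1), 2, 5 and 3 (without C5-3), 0, 1 and 2 (without P5-1), 4, 4 and 4 (without P5-2), 1, 4 and 3 (without P5-3), 1, 6 and 4 (without C8-3), 7, 8 and 5 (without P8-1), 1, 3 and 3 (without P8-2) and 0, 3 and 3 (without P8-3). With arrays scaled, 6 injury genes fell and 8 inflammatory genes rose. With arrays taken as independent, 7 redox genes rose. With a dye effect, 7 redox genes rose. With the most variable probe of each gene, 4 injury genes rose. 1 redox gene rose with the replicate number as a block. With the array of C8-2 and P8-1 left out, 8 redox genes rose. The rises and falls in control eyes were 1 and 15 for redox (median −0.22, against −0.01 with PTU), 8 and 4 for injury (median 0.08, against −0.07 with PTU) and 3 and 1 for inflammatory genes (median 0.09, against 0.01 with PTU). Genes whose change was more positive and more negative with PTU numbered 16 and 4 for redox, 4 and 17 for injury and 5 and 9 for inflammatory genes. The shares over all genes were 11.9% and 6.92%. prdx1 (−0.72, adjusted p = 0.251) did not pass in control eyes without C5-1 or P5-1.

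**Figure D5:**
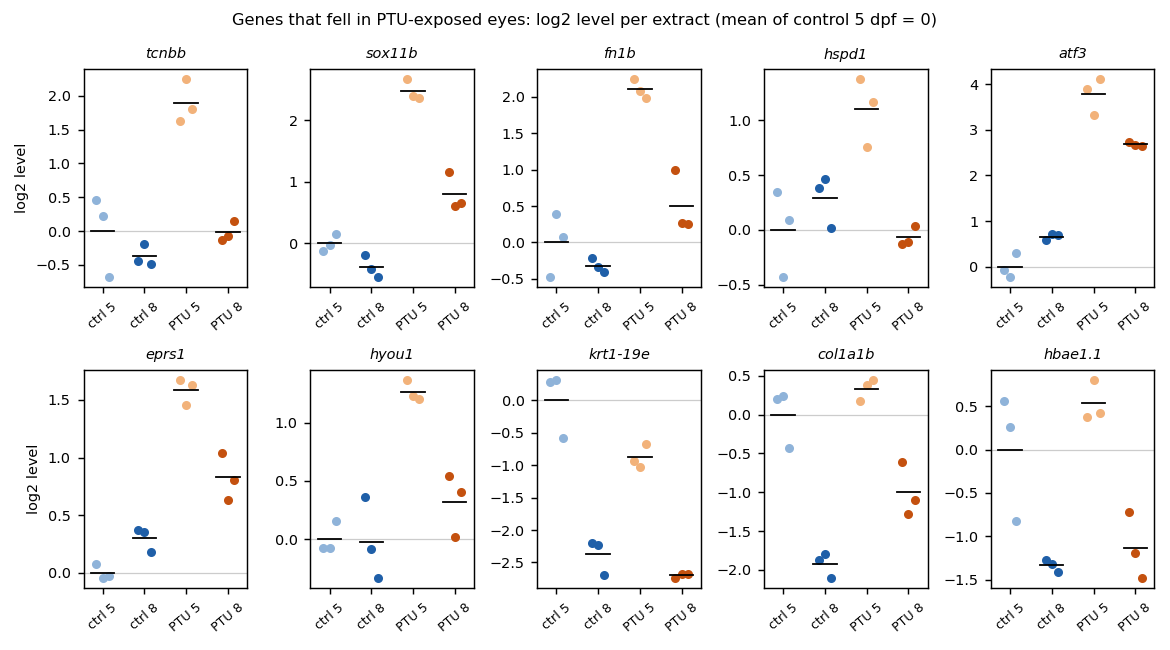
Log2 level (y axis, mean of control 5 dpf = 0) of 10 genes that fell in PTU-exposed eyes, with a point for each of the 3 extracts of control and PTU eyes at 5 and 8 dpf and a bar for their mean. tcnbb, sox11b, fn1b, hspd1, atf3, eprs1 and hyou1 were highest in PTU 5 dpf, while krt1-19e, col1a1b and hbae1.1 were lower at 8 than at 5 dpf in control eyes also.

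Among genes of cell division all calls were falls, whereas 8.77% of all genes rose and 6.69% fell. None of 46 DNA replication and 49 mitosis genes rose, and 9 and 16 fell (19.6% and 32.7%), with medians of −0.13 in PTU-exposed and −0.23 in control eyes for replication and −0.22 in PTU-exposed and −0.45 in control eyes for mitosis. smc4, a condensin subunit, fell by 0.64 ± 0.10, adjusted p = 0.000802, with levels of 0.71, 0.53 and 0.78 at 5 dpf and 0.30, −0.17 and 0.01 at 8 dpf. The cyclin ccnb1 (−0.59 ± 0.11, adjusted p = 0.00235), topoisomerase top2a (−0.51 ± 0.09, adjusted p = 0.00235) and the chromatin assembly factor chaf1a (−0.49 ± 0.08, adjusted p = 0.00100) fell too. Control eyes had 14 and 32 falls in these lists. Of 67 chromatin genes 12 fell (17.9%) and 2 rose, while in control eyes 18 fell and 4 rose (medians −0.12 in PTU-exposed and −0.20 in control eyes), and among the falls was smarca5, a remodelling ATPase, with levels of 1.21, 1.05 and 1.11 at 5 dpf and 0.66, 0.23 and 0.31 at 8 dpf (−0.79 ± 0.10, adjusted p = 0.000164). It fell by 0.35 ± 0.10, adjusted p = 0.0321 in control eyes. Of 76 cytosolic ribosomal protein genes 13 rose (17.1%) and none fell (median 0.24 in PTU-exposed and 0.14 in control eyes), among them rps27.2 (0.76 ± 0.14, adjusted p = 0.00299). Of 79 respiratory chain genes 11 fell (13.9%, against 6.69% of all genes) and 1 rose (1.27%), while 34 fell in control eyes. Their medians were −0.12 in PTU-exposed and −0.52 in control eyes. The ATP synthase subunit atp5fa1 fell by 0.65 ± 0.10, adjusted p = 0.000806, with probes from −1.15 to −0.11. cox4i2, a cytochrome oxidase subunit, rose by 0.91 ± 0.17, adjusted p = 0.00245. smc4 (−0.69, adjusted p = 0.0546) and atp5fa1 (−0.74, adjusted p = 0.0502) did not pass without P5-1. ccnb1 (−0.46, adjusted p = 0.116) did not pass without C5-1. top2a (−0.41, adjusted p = 0.101), chaf1a (−0.50, adjusted p = 0.0838), rps27.2 (0.70, adjusted p = 0.0694) and cox4i2 (0.89, adjusted p = 0.168) did not pass without C5-1 or P5-1. Replication, mitosis, chromatin and respiratory chain genes that fell numbered 1, 5, 5 and 8 (without the direct array), 0, 1, 4 and 3 (without C5-1), 4, 14, 12 and 8 (without C5-3), 0, 1, 1 and 0 (without P5-1), 3, 11, 10 and 9 (without P5-3), 5, 13, 10 and 7 (without C8-1), 2, 3, 6 and 6 (without P8-2) and 2, 6, 7 and 9 (without P8-3). The number of ribosomal protein genes that rose was 2 (without the direct array), 0 (without C5-1), 0 (without P5-1), 20 (without P5-2), 7 (without P5-3), 8 (without C8-2), 8 (without C8-3), 4 (without P8-2) and 1 (without P8-3). With arrays taken as independent, 24 ribosomal protein genes rose. With a dye effect, 17 respiratory chain genes fell and 24 ribosomal protein genes rose. With the most variable probe of each gene, 5 replication genes fell. 2 replication genes fell, 8 mitosis genes fell and 6 ribosomal protein genes rose with the replicate number as a block. Control eyes had 1 rise and 0 falls of ribosomal protein genes. smarca5 (−0.26, adjusted p = 0.514) did not pass in control eyes without C5-1, C5-3, P5-1, P5-3, C8-1, C8-2, C8-3, P8-2, P8-3 or the direct array.

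Several of the 12 largest falls were of genes known from muscle, skin, cartilage and blood. Among all genes 6.69% fell and 8.77% rose. Of 60 muscle genes 21 fell (35%) and 2 rose (median −0.51 in PTU-exposed and −0.29 in control eyes), and of 52 genes of extracellular matrix and cornea 20 fell (38.5%) and 4 rose (median −0.37 in PTU-exposed and −0.26 in control eyes). The calcium buffer of fast muscle, pvalb1, had levels of 0.77, 0.95 and 0.05 at 5 dpf and −1.11, −1.92 and −2.16 at 8 dpf and fell by 2.46 ± 0.43, adjusted p = 0.00156. Other genes of the muscle fibre that fell were pvalb2 (−1.84 ± 0.50, adjusted p = 0.0236), pvalb4 (−1.74 ± 0.40, adjusted p = 0.00981), actc1b (−1.64 ± 0.42, adjusted p = 0.0163) and tnnc2.2 (−1.62 ± 0.37, adjusted p = 0.00942). Among collagens 12 of 21 fell, with col1a1b at 0.17, 0.38 and 0.44 at 5 dpf and −0.62, −1.28 and −1.1 at 8 dpf (−1.33 ± 0.18, adjusted p = 0.000276), col10a1a at 0.23, 0.30 and 0.16 at 5 dpf and −0.61, −1.02 and −1.01 at 8 dpf (−1.15 ± 0.15, adjusted p = 0.000282) and the cartilage collagen col2a1a at 0.38, 0.66 and 0.59 at 5 dpf and −0.61, −1.55 and −1.12 at 8 dpf (−1.60 ± 0.34, adjusted p = 0.00601). The skin keratin krt1-19e had levels of −0.94, −1.04 and −0.68 at 5 dpf and −2.74, −2.68 and −2.68 at 8 dpf (−1.80 ± 0.22, adjusted p = 0.000134), with probes from −2.43 to −0.31. Haemoglobin hbae1.1 had levels of 0.38, 0.80 and 0.42 at 5 dpf and −0.72, −1.19 and −1.48 at 8 dpf (−1.81 ± 0.27, adjusted p = 0.000645). pvalb1 (−2.13, adjusted p = 0.134) did not pass without P5-1. pvalb2 (−1.53, adjusted p = 0.384) did not pass without C5-1, P5-1, C8-3, P8-2, P8-3 or the direct array. pvalb4 (−1.80, adjusted p = 0.198), actc1b (−1.52, adjusted p = 0.273) and tnnc2.2 (−1.57, adjusted p = 0.206) did not pass without C5-1, P5-1, P8-2, P8-3 or the direct array. col2a1a (−1.26, adjusted p = 0.176) did not pass without C5-1, P5-1 or P8-2. Muscle and matrix genes that fell numbered 5 and 7 (without the direct array), 3 and 4 (without C5-1), 0 and 4 (without P5-1), 12 and 15 (without C8-3), 6 and 7 (without P8-2) and 3 and 7 (without P8-3). 9 muscle genes fell with the replicate number as a block. Control eyes had 4 falls of muscle and 18 of matrix genes.

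In control eyes, pvalb1 changed by −1.69 ± 0.43, adjusted p = 0.0183, col1a1b by −2.02 ± 0.18, adjusted p = 1.78e-05, krt1-19e by −2.42 ± 0.22, adjusted p = 1.78e-05 and hbae1.1 by −1.59 ± 0.27, adjusted p = 0.00174. Of these, pvalb1 (highest adjusted p = 0.196, without P5-1, at −1.54) did not pass without C5-1, P5-1, C8-1, P8-2 or P8-3 in turn and hbae1.1 (−1.11, adjusted p = 0.141) without C5-1. The mean level of the 8 defining skeletal muscle markers was −1.05 to 0.96 in control 5 dpf, −0.73 to −0.46 in control 8 dpf, 0.27 to 0.61 in PTU 5 dpf and −0.78 to 0.14 in PTU 8 dpf. Of these markers 3 fell in PTU-exposed and 1 in control eyes, and control 5 dpf extracts spanned the widest range. The 3 were pvalb1, pvalb2 and actc1b, which are themselves among the largest falls, so they are not a separate reading. The muscle markers acta1b, myhz2, mylpfa, ckma and tnnt3b were not called in PTU-exposed eyes. The 7 epidermis markers had mean levels of −0.50 to 0.27 in control 5 dpf, −0.72 to −0.42 in control 8 dpf, −0.50 to −0.37 in PTU 5 dpf and −1.2 to −0.86 in PTU 8 dpf (4 and 3 fell), and the 3 measured erythrocyte markers −0.80 to 0.43 in control 5 dpf, −1.35 to −1.15 in control 8 dpf, 0.09 to 0.49 in PTU 5 dpf and −1.38 to −0.84 in PTU 8 dpf (all 3 fell in both). These 3 of 7 listed erythrocyte markers are all haemoglobin genes, hbae1.1, hbbe1.1 and hbbe2, and hbae1.1 is itself one of the largest falls. Of 5 cartilage markers only col2a1a, itself one of the largest falls, fell in each kind of eye. None of the measured liver, pancreas, brain and neutrophil markers fell, and 1, the plasma protein tfa, rose by 2.04 ± 0.40, adjusted p = 0.00362. The share of carried-over tissue in these falls was not tested. tfa (2.43, adjusted p = 0.0890) did not pass without P5-1. Of the eye's own markers, 7 of 9 were measured (opn1sw1, opn1sw2, gnat2, cryaa, rpe65a, vsx1 and rlbp1a). Their spots were above background on at least 1 array, which holds for every measured probe because others were left out before deposition. In exposed eyes 2 of these 7 markers rose and 1 fell, and 6 fell in control eyes.

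For pvalb1, pvalb2, pvalb4, actc1b, tnnc2.2, col2a1a, krt1-19e and hbae1.1, the difference from the change in control eyes did not pass. The lowest adjusted p was 0.0779, for krt1-19e. In control eyes col2a1a fell by 1.76 ± 0.34, adjusted p = 0.00380. In 2 other large falls, those of tcnbb and fn1b, the change did differ from that of control eyes. tcnbb, a vitamin B12 carrier, had levels of 1.62, 2.24 and 1.80 at 5 dpf and −0.14, −0.07 and 0.15 at 8 dpf and fell by 1.90 ± 0.22, adjusted p = 9.93e-05, a 3.72-fold change (−0.44 in control eyes, difference adjusted p = 0.000762). The fibronectin gene fn1b had levels of 2.24, 2.08 and 1.99 at 5 dpf and 1.00, 0.27 and 0.26 at 8 dpf and fell by 1.55 ± 0.20, adjusted p = 0.000224, against −0.27 in control eyes (difference adjusted p = 0.000971). Both were well above control in all 3 extracts at the end of exposure. In the other direction, sparcl1, a matrix protein, had levels of −1.79, −1.82 and −1.85 at 5 dpf and −0.93, −0.78 and −0.80 at 8 dpf and rose by 1.01 ± 0.13, adjusted p = 0.000192, while its change in control eyes was −0.79 (difference 1.79 ± 0.14, adjusted p = 1.22e-06). fn1b (−1.27, adjusted p = 0.0645) did not pass without P5-1.

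More clock genes rose than fell in both kinds of eye. By the methods all larvae were sampled in the morning, and the labels give no hour for an extract. The part of sampling time in these changes was not tested. Of 40 measured 13 rose (32.5%, against 8.77% of all genes) and 1 fell with PTU, and 18 rose and 4 fell in control eyes. The medians were 0.26 in PTU-exposed and 0.38 in control eyes. Of 4 period genes 1 rose in PTU-exposed eyes, and per1a, per2 and per3 were not called. Of 7 cryptochromes, cry2, cry5 and cry1b rose there, and cry3a, cry3b, cry4 and cry1a were not called. The period gene per1b had levels of −1.1, −1.52 and −1.98 at 5 dpf and 0.42, 0.09 and 0.35 at 8 dpf and rose by 1.52 ± 0.22, adjusted p = 0.000485, against 1.86 ± 0.22 in control eyes. nfil3-6, a repressor of the clock, had levels of −1.75, −1.95 and −2.26 at 5 dpf and −0.53, 0.01 and −0.54 at 8 dpf (1.43 ± 0.20, adjusted p = 0.000395), with probes from 0.57 to 2.22. ddb2, a light-induced gene of DNA repair, rose by 0.97 ± 0.19, adjusted p = 0.00324, and aanat1, the retinal enzyme of melatonin synthesis, fell by 0.67 ± 0.11, adjusted p = 0.00135. Of 11 thyroid hormone genes 1 rose and 1 fell (9.09% each, against 8.77% and 6.69% of all genes). The receptor thraa rose by 0.44 ± 0.14, adjusted p = 0.0413, with levels of −0.72, −0.54 and −0.93 at 5 dpf and −0.16, −0.27 and −0.26 at 8 dpf, and by 0.48 ± 0.14, adjusted p = 0.0325 in control eyes (difference −0.04 ± 0.14, adjusted p = 0.879). The co-activator med24 fell by 0.32 ± 0.08, adjusted p = 0.0120, against −0.05 ± 0.08, adjusted p = 0.763 in control eyes. The receptor thrb (−0.19 ± 0.12, adjusted p = 0.342), whose probes ranged from −0.33 to 0.01, and the deiodinases dio1 (−0.04 ± 0.09, adjusted p = 0.791) and dio2 (0.15 ± 0.07, adjusted p = 0.213), which convert thyroid hormone, did not pass. ddb2 (0.83, adjusted p = 0.143) did not pass without P5-1 or P8-3. aanat1 (−0.54, adjusted p = 0.110) did not pass without P5-1. thraa (0.38, adjusted p = 0.463) did not pass without C5-1, C5-3, P5-1, P5-3, C8-1, C8-2, P8-1, P8-2, P8-3 or the direct array. med24 (−0.32, adjusted p = 0.294) did not pass without C5-1, P5-1, P8-2, P8-3 or the direct array. thraa (0.43, adjusted p = 0.288) did not pass in control eyes without C5-1, C5-2, C5-3, P5-1, P5-2, C8-1, C8-2, C8-3, P8-3 or the direct array. The control rises and falls were 2 and 1 for the thyroid hormone genes (median 0.02, against 0.02 with PTU). The number of clock genes that rose was 5 (without the direct array), 3 (without C5-1), 2 (without P5-1), 6 (without P8-2) and 2 (without P8-3).

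In the remaining lists, rises and falls are given with their percentages, against 8.77% and 6.69% of all genes. They numbered 3 and 8 of 49 for glycolysis and hypoxia (6.12% and 16.3%), 1 and 3 of 21 for cholesterol and fatty acid synthesis (4.76% and 14.3%), 7 and 1 of 52 for liver, plasma and digestive tract (13.5% and 1.92%) and 3 and 1 of 38 for purine metabolism (7.89% and 2.63%). For synapses they were 4 and 4 of 52 (7.69% each), for voltage-gated channels 3 and 0 of 17 (17.6% and 0%) and for epidermis 0 and 5 of 44 (0% and 11.4%). For smooth muscle, vessels and erythrocytes they were 1 and 4 of 35 (2.86% and 11.4%), and for developmental signalling 2 and 4 of 72 (2.78% and 5.56%). The corresponding rises and falls in control eyes were 4 and 8 for glycolysis and hypoxia (median −0.19, against −0.18 with PTU), 0 and 3 for cholesterol and fatty acids (median −0.02, against −0.04 with PTU), 1 and 3 for liver, plasma and digestive tract (median −0.32, against 0.02 with PTU), 0 and 5 for purine metabolism (median −0.14, against 0.01 with PTU), 4 and 2 for synapses (median 0.02, against 0.08 with PTU), 1 and 0 for channels (median 0.26, against 0.11 with PTU), 0 and 4 for epidermis (median −0.23, against −0.22 with PTU), 0 and 8 for smooth muscle, vessels and erythrocytes (median −0.07, against 0.02 with PTU) and 2 and 9 for signalling (median −0.10, against 0.02 with PTU). bnip3lb, a receptor of mitophagy, rose by 0.69 ± 0.11, adjusted p = 0.000772, and igfbp1b, an insulin-like growth factor binding protein, rose by 0.96 ± 0.17, adjusted p = 0.00149. The potassium channel kcnq1.1 had levels of −0.07, −0.07 and −0.17 at 5 dpf and 0.54, 0.62 and 0.49 at 8 dpf and rose by 0.62 ± 0.09, adjusted p = 0.000327. pfkfb3, a regulator of glycolysis, fell by 0.76 ± 0.13, adjusted p = 0.00174, and dusp6, a phosphatase induced by Fgf signalling, rose by 0.47 ± 0.09, adjusted p = 0.00353. The purine enzymes ada (0.83 ± 0.14, adjusted p = 0.00122) and ak4 (0.90 ± 0.15, adjusted p = 0.00131) rose. pfkfb3 (−0.52, adjusted p = 0.222) and ak4 (0.88, adjusted p = 0.0795) did not pass without P5-1. dusp6 (0.38, adjusted p = 0.115) did not pass without C5-1 or P5-1. ada (0.65, adjusted p = 0.0881) did not pass without C5-1. Glycolysis and hypoxia genes that fell and liver and plasma genes that rose numbered 2 and 4 (without the direct array), 2 and 4 (without C5-1), 0 and 2 (without P5-1), 5 and 6 (without C8-1), 3 and 5 (without P8-2) and 2 and 4 (without P8-3). Synapse and channel genes that rose and epidermis and signalling genes that fell numbered 1, 2, 5 and 2 (without the direct array), 0, 1, 2 and 0 (without C5-1), 6, 3, 8 and 6 (without C5-2), 0, 1, 1 and 0 (without P5-1), 3, 2, 3 and 0 (without P8-2) and 1, 1, 4 and 1 (without P8-3). Synapse, cholesterol and vessel genes that fell and purine genes that rose numbered 1, 1, 4 and 3 (without the direct array), 0, 1, 2 and 1 (without C5-1), 0, 0, 1 and 1 (without P5-1), 2, 2, 4 and 2 (without P5-2), 2, 2, 4 and 2 (without P5-3), 1, 2, 4 and 3 (without C8-1), 2, 3, 4 and 5 (without C8-2), 1, 3, 4 and 2 (without C8-3), 4, 2, 5 and 6 (without P8-1), 1, 2, 3 and 2 (without P8-2) and 1, 1, 3 and 2 (without P8-3). With arrays scaled, 7 synapse genes fell, 8 epidermis genes fell and 7 signalling genes fell. With arrays taken as independent, 7 synapse genes rose, 7 synapse genes fell, 10 epidermis genes fell and 8 signalling genes fell. With a dye effect, 7 synapse genes rose and 7 signalling genes fell. With the most variable probe of each gene, 7 synapse genes rose and 2 synapse genes fell. 4 glycolysis genes fell, 2 synapse genes rose and 2 signalling genes fell with the replicate number as a block. Where 0 genes of a list fell by limma's adjusted p, the genes that did so at an unadjusted p under 0.05 numbered 3 for photoreceptor structure and transcription factors, 1 for lens crystallins and fibre genes, 2 for bipolar cells, 1 for amacrine cells, 0 for horizontal cells, 0 for melanin and pigment cells, 0 for cytosolic ribosomal proteins, 0 for voltage-gated ion channels and 1 for jacalin-like and other lectins. Where 0 rose, they numbered 0 for DNA replication, 0 for mitosis and 2 for epidermis and keratins.

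The change from 5 to 8 dpf was itself compared between PTU-exposed and control eyes in the model. It was more positive with PTU for 1003 genes (11.9%) and more negative for 584 (6.92%). These numbers were 591 and 318 without C5-1, 409 and 177 without P5-1, 450 and 259 without C8-3, and 534 and 312 without P8-3, and those more negative were 384 without C5-3 and 382 without P8-2. Among genes called in PTU-exposed eyes, those with the smallest p for a more positive change were cd74b, fabp4b, ccl34b.1, otc, si:dkey-21e2.10, mipa, cryaa and cd74a. otc, an enzyme of the urea cycle, had levels of −1.33, −1.41 and −1.48 at 5 dpf and −0.61, −0.64 and −0.28 at 8 dpf and rose by 0.90 ± 0.11, adjusted p = 0.000109, while in control eyes it fell by 0.91 (difference 1.81 ± 0.11, adjusted p = 2.08e-07). For fabp4b the change in control eyes was −0.75 (difference 2.77 ± 0.16, adjusted p = 9.74e-08), and for cryaa it was −0.53 (difference 2.49 ± 0.17, adjusted p = 2.96e-07). The changes of cd74b, ccl34b.1 and mipa in control eyes were 0.18, −0.23 and −0.28 and did not pass. The differences of these 8 genes and of the 8 that follow all passed with any extract or the direct array left out (highest adjusted p = 0.00211). They were chosen by the smallest p for this same difference, so that they kept it largely follows from the choice.

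Those with the smallest p for a more negative change were cbx7a, eprs1, nr2f1b, tcap, c7b, atf3, lepa and nolc1. cbx7a, a Polycomb protein, had levels of 1.76, 1.40 and 1.44 at 5 dpf and 1.05, 1.17 and 1.01 at 8 dpf and fell by 0.55 ± 0.12, adjusted p = 0.00725, while it rose by 1.09 ± 0.12 in control eyes (difference −1.64 ± 0.13, adjusted p = 1.92e-06). The nuclear receptor nr2f1b had levels of 1.17, 0.96 and 1.09 at 5 dpf and 0.30, 0.40 and 0.22 at 8 dpf (−0.82 ± 0.11, adjusted p = 0.000300), against 0.42 in control eyes. In control eyes atf3 changed by 0.64 ± 0.17 and c7b by 0.54 ± 0.13. In leptin (lepa), levels were 1.66, 1.46 and 1.67 at 5 dpf and 0.83, 0.82 and 0.73 at 8 dpf (−0.89 ± 0.10, adjusted p = 0.000110), against 0.15 in control eyes. The nucleolar protein nolc1 fell by 0.68 ± 0.11, adjusted p = 0.00124, and tcap, the titin cap of muscle, fell by 0.88 ± 0.11, adjusted p = 0.000192, with control changes of 0.38 and 0.30. For all 8 genes, every PTU 8 dpf extract lay between the mean of control 5 dpf and the lowest PTU 5 dpf extract. The genes were chosen among those that fell, so a place below the PTU 5 dpf extracts largely follows from the choice. The mean of control 5 dpf is also not the level of control eyes at 8 dpf, since cbx7a rose by 1.09 in control eyes. cbx7a (−0.25, adjusted p = 0.484) did not pass without P5-1, P8-3 or the direct array. nr2f1b (−0.62, adjusted p = 0.114), atf3 (−0.86, adjusted p = 0.143), c7b (−0.75, adjusted p = 0.0655) and tcap (−0.71, adjusted p = 0.0755) did not pass without P5-1. nolc1 (−0.65, adjusted p = 0.0565) did not pass without C5-1.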

How the data were processed

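Eyes of zebrafish larvae were profiled on 14 two-colour Agilent arrays carrying 12 RNA extracts, 3 in each of 4 groups. The authors quantified spots in GenePix, left out spots that were not above background on any array, corrected the background by normexp, normalized by loess within arrays with limma 3.34.4 and deposited log2 Cy5/Cy3 ratios per probe. The deposited log2 table states neither base nor direction, which were taken from the methods and the dye labels. Background correction and loess compress the ratios of dim spots and remove a shift common to all genes. Array intensities and the genome build were not used here.

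Of 16913 probes, 13708 had 1 gene symbol, after updating through RefSeq accessions and symbols of the GRCz12tu assembly, and were averaged to 8445 genes; 3205 had none. One model with a term for each of the 4 groups was fitted in limma 3.58.1 (R 4.3.3), for probes with arrays independent and for genes with the extract as a random effect (variance ratio 0.138, 11 residual degrees of freedom), followed by eBayes and Benjamini-Hochberg adjustment. The code was run on ratios simulated from the fitted model, which cannot show whether that model suits these data. An extract was left out together with all its arrays. No 2 arrays correlated above 0.833 in size, so none was a duplicate. For genes, p-values rest on the spread between arrays together with that between extracts, which came from plates of one experiment. The extract's part was set by 1 variance ratio (0.138) for all genes, so most of this spread was between arrays. For probes, arrays were taken as independent although they shared extracts. Genes were named as the 12 largest rises and falls without overlap of extracts, up to 4 members of each list by p, the 8 genes in each direction by p for the difference from control eyes, and all visual opsins, thyroid hormone receptors and deiodinases. Other genes appear only in complete accounts of a list or as markers. The members and lists were chosen with earlier results of these data known. Some genes are in more than 1 list and count in each. Examples are trpm1a and trpm1b (bipolar and pigment cells), lgals3bp.1 and lgals9l1 (macrophages and lectins) and atf4b (amino acid response and reticulum).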

Additional observations from a re-analysis of the deposited data

Results flagged for a closer look

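The change from 5 to 8 dpf differed between PTU-exposed and control eyes for 16 named genes, each by limma's test of the difference. The first value in brackets is the log2 change in PTU-exposed eyes and the second that in control eyes. More positive with PTU were cd74b (2.46 and 0.18, difference 2.28 ± 0.13, adjusted p = 9.74e-08), fabp4b (2.01 and −0.75, difference 2.77 ± 0.16, adjusted p = 9.74e-08), ccl34b.1 (1.69 and −0.23, difference 1.93 ± 0.12, adjusted p = 2.08e-07), otc (0.90 and −0.91, difference 1.81 ± 0.11, adjusted p = 2.08e-07), si:dkey-21e2.10 (3.31 and 0.25, difference 3.06 ± 0.20, adjusted p = 2.78e-07), mipa (1.43 and −0.28, difference 1.71 ± 0.11, adjusted p = 2.95e-07), cryaa (1.97 and −0.53, difference 2.49 ± 0.17, adjusted p = 2.96e-07) and cd74a (2.38 and 0.18, difference 2.21 ± 0.16, adjusted p = 5.90e-07). More negative were cbx7a (−0.55 and 1.09, difference −1.64 ± 0.13, adjusted p = 1.92e-06), eprs1 (−0.81 and 0.21, difference −1.02 ± 0.10, adjusted p = 1.44e-05), nr2f1b (−0.82 and 0.42, difference −1.24 ± 0.12, adjusted p = 1.52e-05), tcap (−0.88 and 0.30, difference −1.18 ± 0.12, adjusted p = 2.22e-05), c7b (−0.82 and 0.54, difference −1.36 ± 0.14, adjusted p = 2.24e-05), atf3 (−1.14 and 0.64, difference −1.78 ± 0.18, adjusted p = 2.79e-05), lepa (−0.89 and 0.15, difference −1.04 ± 0.11, adjusted p = 3.85e-05) and nolc1 (−0.68 and 0.38, difference −1.06 ± 0.12, adjusted p = 5.95e-05). These are the 8 genes in each direction with the smallest p among those called in PTU-exposed eyes. All 16 passed with any extract or the direct array left out, which largely follows from this choice. Groups of 3 extracts were too small to test single extracts as outliers.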

How the results depend on the processing

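Transcripts called higher and lower (381 and 267) became 1551 and 1304 with no fold threshold and 188 and 117 with an absolute log2 fold change over 1, and ranged from 151 to 470 and from 41 to 305 with single extracts left out. Genes that rose and fell (741 and 565) became 167 and 88 with an absolute log2 fold change over 0.75 and 323 and 217 without the direct array, and ranged from 91 to 970 and from 28 to 643 with single extracts left out. Genes more positive and more negative with PTU (1003 and 584) ranged from 409 to 1299 and from 177 to 792. Leaving out PTU 5 dpf replicate 1 or control 5 dpf replicate 1 also removes 2 of the 4 arrays that tie the ages, so fewer arrays carry the contrast. With the replicate number as a block, 472 genes rose, 322 fell and 170 transcripts were lower. The numbers share no source in the labels and did not pair the extracts (deviations of same-numbered PTU extracts correlated at r = 0.03, −0.23 and 0.01). Of 164 named genes called in PTU-exposed eyes, 148 kept their call with the block, 132 without the direct array, 158 with arrays scaled, 159 with the most variable probe of each gene and 44 with any extract left out, and none changed sign. The alternatives for single differences from control eyes and single changes in control eyes were chosen after seeing the data. Centring, a dye effect, robust moderation and the other handling of extracts moved none of these counts over all genes by over 1.5 times, though a dye effect and arrays taken as independent moved counts of single lists, as given with each list. Near-identical gene copies may share probes, and levels in dim spots are compressed.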
